A study of Mus musculus with 23 samples.

Results

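The clustered protocadherin genes lie on chromosome 18 as the arrays Pcdha, Pcdhb and Pcdhg, and the values described here are CpG methylation levels of the windows whose midpoints fall across those arrays (GRCm38). They are 180 of 333984 windows in the E6.5 table, and 207 of 402812 windows in the E7.5 table and in the E7.5 table of parental alleles. The study asked how imprinting and DNA methylation differ between the epiblast, which forms the embryo proper, and the extra-embryonic ectoderm (ExE), which contributes to the placenta. Hybrid embryos came from reciprocal crosses of B6 and CAST mice, written with the mother first. At E6.5 the B6/CAST and CAST/B6 crosses gave 3 epiblast and 2 ExE libraries each, all from pools of 4 epiblasts or 8 ExEs. A further cross, matDKO/CAST, gave 2 epiblast and 3 ExE pools. Its mothers, of mixed B6 and 129 background, had floxed Dnmt3a and Dnmt3b deleted in oocytes by Zp3-cre, so their embryos inherited no functional maternal copy of either de novo methyltransferase gene and developed from eggs lacking that methylation. These embryos kept the paternal copies, were compared here with B6/CAST, and no library came from a cross with Zp3-cre alone. At E7.5 each library was 1 embryo's tissue, with 2 epiblast and 2 ExE libraries for each of the reciprocal crosses.

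Protocadherins are cell surface adhesion proteins that give single neurons distinct identities. Each alternate gene of an array has its own promoter and a large first exon, and in Pcdha and Pcdhg that exon is spliced to constant exons shared by the whole array, whereas Pcdhb genes are single-exon genes. Neurons choose alternate promoters largely at random, the C-type genes (Pcdhac1, Pcdhac2, Pcdhgc3, Pcdhgc4 and Pcdhgc5) are used more uniformly, and promoter methylation, with CTCF and the chromatin protein SMCHD1, is known to act on this choice.

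The windows were drawn by CpG number and so vary in length. At E7.5 they held a median of 51 CpGs over 3289 bp (range 448 to 18489 bp), and at E6.5 a median of 57 CpGs over 3703 bp. The tables give percentages without read counts, so the depth behind a window is unknown. Most libraries had a value in nearly every window of the arrays, but 1 matDKO/CAST epiblast library (replicate 3) had one in only 135 of 180. Levels of exactly 0.0% occurred in 14 of the 15 E6.5 libraries, in 14 windows in that epiblast library and 13 in matDKO/CAST ExE replicate 3, and in 7 or fewer in each other library. Tests used windows with a value in each library of the comparison. Over all autosomal windows the wild-type means at E7.5 ran from 71.7 to 75.6% in the epiblast and from 56.0 to 59.2% in ExE, and at E6.5 from 65.9 to 79.4% and from 53.5 to 66.2%. As a check of the dissected tissue, the window at the start of Elf5, a trophoblast transcription factor gene, was at 85.9 ± 5.1% in the E7.5 epiblast and 63.9 ± 3.7% in ExE, and that of the pluripotency gene Pou5f1 at 18.1 ± 5.9% and 38.9 ± 2.3% (SD, n = 4 libraries each, as for all E7.5 tissue values below).

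The arrays were far less methylated than the genome around them, in both tissues. At E7.5 their mean was 44.2, 44.4, 45.2 and 47.0% in the 4 epiblast libraries and 30.3, 32.3, 33.1 and 35.2% in the 4 ExE libraries (45.2 ± 1.25% and 32.7 ± 2.02%, 206 windows). No ExE library reached the lowest epiblast library. The autosomal means were 73.9 ± 1.65% and 57.6 ± 1.66%, and the flanks of 500 kb on either side stood at 65.2 ± 0.85% and 54.4 ± 2.07% upstream and at 63.4 ± 1.24% and 53.1 ± 1.23% downstream. Pcdhb had the highest epiblast level of the arrays, 53.2 ± 2.42% against 34.1 ± 2.60% in ExE, and Pcdha followed at 48.3 ± 0.84% against 32.2 ± 2.46%. Pcdhg was lowest at 29.4 ± 1.16%, close to its ExE level of 27.2 ± 1.44%. The 28 windows between the arrays reached 62.7 ± 1.88% and 44.8 ± 2.41%.

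**Figure D1:**
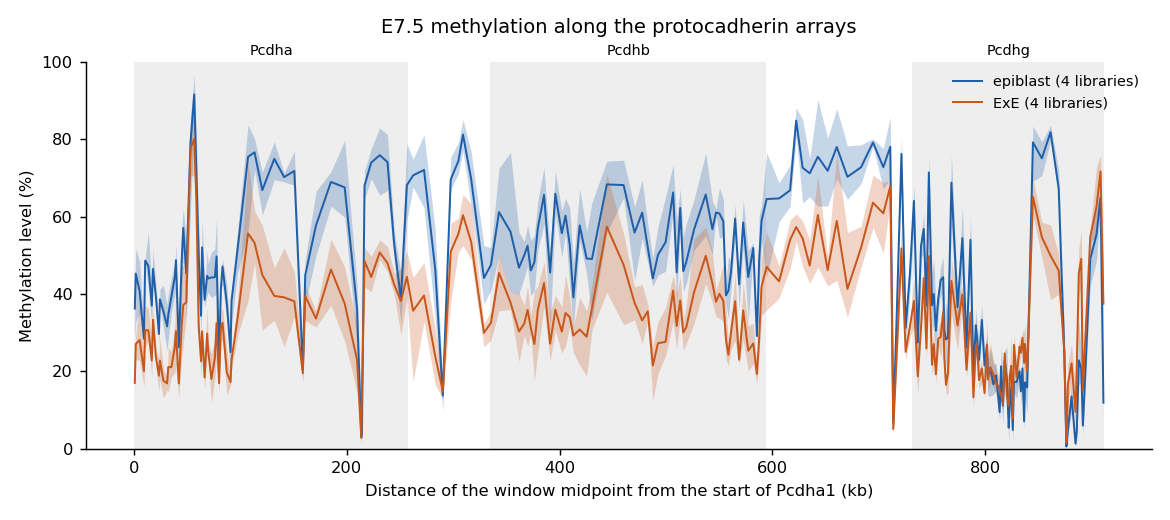
Methylation level (%) of each window at E7.5 against the distance of its midpoint from the start of Pcdha1 (kb). Lines are means of 4 epiblast (blue) or 4 ExE (orange) libraries, bands run from the lowest to the highest library, and grey areas are the arrays. The lines run apart over Pcdha and Pcdhb and meet over the downstream part of Pcdhg, where the alternate genes average 18.95 and 20.3%.

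Low methylation followed the first exons. The level given for a first exon averages its overlapping windows by their share of the exon, a measure chosen after the windows had been seen. The tests were run on windows, so a gene's test below is that of the single window holding most of its first exon, whose own epiblast and ExE means are given with it and differ from the first exon's. The 150 windows overlapping a protocadherin first exon averaged 38.0 ± 1.40% in the epiblast and 27.0 ± 2.22% in ExE, against 64.5 ± 2.35% and 48.0 ± 2.34% for the 56 others. First exons hold from 11.6 (Pcdhb14) to 54.1 (Pcdha12) CpGs per kb. Over the 58 of them, level and CpG density had a Spearman rho of -0.71 in the epiblast and -0.66 in ExE. Within an array rho was -0.43 and -0.51 (14 Pcdha genes), -0.18 and 0.04 (22 Pcdhb genes), and -0.56 and -0.66 (22 Pcdhg genes), so the pooled values also hold differences between the arrays. These are descriptions across neighbouring genes that share windows, base composition and libraries. The dense windows of the arrays were still not unmethylated. Members under 1 kb had a median of 29.1% in the epiblast and 22.9% in ExE (26 windows), whereas other autosomal windows under 1 kb had medians of 1.23% and 1.27%.

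Along Pcdha the 12 alternate genes had similar levels. Their first exons averaged 40.6 ± 1.6% in the E7.5 epiblast and 25.02 ± 2.7% in ExE, from 33.3% at Pcdha5 to 46.4% at Pcdha10 in the epiblast, and each of the 12 was higher in the epiblast. Pcdha1, the first gene of the array, was at 34.9, 41.1, 41.5 and 43.8% in the epiblast libraries and at 19.7, 21.7, 22.7 and 26.3% in those of ExE. All its epiblast values lay above all its ExE values, and its tested window (36.3 and 17.04%) differed by 19.2 ± 2.74 points (difference ± SE here and below, adjusted p = 0.000317, limma over all windows). The C-type gene Pcdhac1, spliced to the same constant exons, was at 38.6, 45.8, 47.9 and 50.0% against 31.3, 36.7, 38.4 and 38.8%. Its groups overlapped, since the lowest epiblast library lay under the highest ExE library, and its window (44.9 and 39.5%) did not pass the test (5.42 ± 2.98 points, adjusted p = 0.117, limma); with each library's autosomal mean subtracted the difference turned to -10.9 points. Pcdhac2, the last gene of the array, was at 40.2, 41.0, 42.7 and 43.3% against 27.7, 32.7, 34.2 and 34.3%. That mean covers a sharp dip within the exon. The window chr18:37143553-37144107, at the 5′ end of the Pcdhac2 first exon, ran from 1.61 to 6.25% in the epiblast and from 2.13 to 3.76% in ExE. The next one, chr18:37144111-37144765, ran from 2.72 to 7.43% against 11.4 to 15.5%, and was the single Pcdha window called higher in ExE (adjusted p = 0.0037, limma). Its neighbour chr18:37144780-37148976 was back at 68.1 ± 3.19% against 48.6 ± 4.70% (19.5 ± 2.63 points, adjusted p = 0.00025, limma).

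Pcdhb was the most methylated array. The 21 alternate genes, Pcdhb2 to Pcdhb22, averaged 53.2 ± 2.6% in the epiblast and 33.5 ± 3.2% in ExE, and each was higher in the epiblast. Pcdhb17 was lowest at 45.5% and Pcdhb16 highest at 60.5%. Pcdhb1, which lacks the conserved promoter element that the alternate genes share, was at 49.5, 50.3, 55.1 and 58.2% in the epiblast and 31.3, 39.2, 40.4 and 41.2% in ExE. Its values did not overlap between the tissues, and its window (47.6 and 32.6%) differed by 15.0 ± 3.03 points (adjusted p = 0.0017, limma), although subtracting the autosomal mean of each library turned that to -1.34 points. Pcdhb22, the last gene, was at 45.7, 61.5, 62.1 and 70.2% against 35.1, 38.7, 45.4 and 47.6%. It had the widest spread among the named genes, with the lowest epiblast library inside the ExE range, and its window (64.6 and 47.1%) passed the test narrowly (17.5 ± 6.97 points, adjusted p = 0.041, limma).

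**Figure D2:**
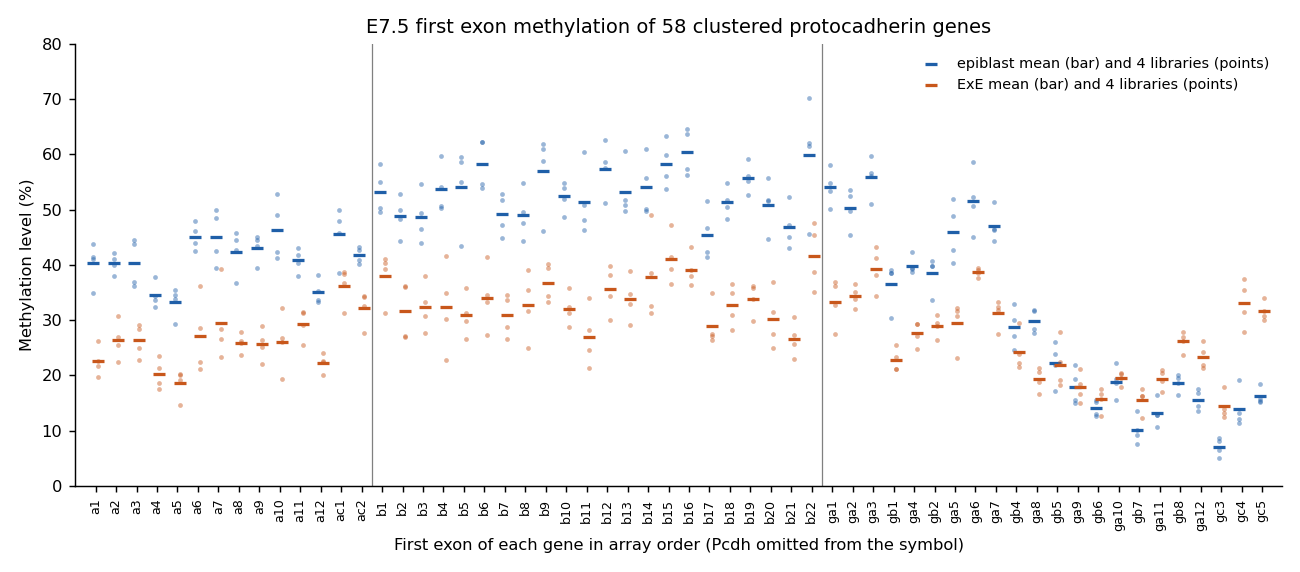
Methylation level (%) of the first exon of each of the 58 clustered protocadherin genes at E7.5, in array order. Points are single libraries (4 epiblast in blue, 4 ExE in orange), bars are tissue means and vertical lines part Pcdha, Pcdhb and Pcdhg. Every Pcdha and Pcdhb gene is higher in the epiblast, and the order turns within Pcdhg, where Pcdhgc3 has the lowest epiblast mean of 7.1%.

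Pcdhg was not even: its level fell along the array. In the E7.5 epiblast the first 9 alternate genes, Pcdhga1 to Pcdhga7, averaged 46.7 ± 1.5%, and the next 10, Pcdhgb4 to Pcdhga12, averaged 18.95 ± 1.5%. In ExE the same stretches stood at 31.7 ± 1.9% and 20.3 ± 1.8%. This split of the array was drawn after its values had been seen, so it is given as a description. All 9 upstream genes were higher in the epiblast, and 6 of the 10 downstream genes were higher in ExE. Over the array the rank correlation of a gene's place with its level was -0.88 in the epiblast and -0.47 in ExE, again a description across neighbours in the same libraries. At the turn, Pcdhgb4 was at 28.7 ± 3.6% in the epiblast and 24.3 ± 3.6% in ExE, and Pcdhga8 at 29.9 ± 2.2% and 19.4 ± 2.1%. The next genes had like levels in the tissues, 22.2 ± 3.8% and 21.9 ± 4.3% at Pcdhgb5, 14.1 ± 1.5% and 15.7 ± 2.1% at Pcdhgb6, and 18.9 ± 2.8% and 19.6 ± 1.1% at Pcdhga10. Further on ExE was above the epiblast, at Pcdhgb7 (10.1 ± 2.5% and 15.6 ± 2.3%), Pcdhga11 (13.2 ± 2.4% and 19.4 ± 1.8%) and Pcdhgb8 (18.7 ± 1.6% and 26.2 ± 1.8%). Pcdhga1, the first gene, was at 50.2, 53.4, 54.8 and 58.1% in the epiblast and at 27.5, 32.7, 36.1 and 36.9% in ExE. The tissues were well apart there, and its window was at 64.1 and 38.2% (25.9 ± 3.51 points, adjusted p = 0.00026, limma). Pcdhga12, the last alternate gene, was at 13.6, 14.5, 16.9 and 17.6% against 21.4, 21.9, 24.2 and 26.2%. Its order was the opposite, with no overlap, but its window (15.8 and 20.1%) did not pass (-4.28 ± 2.31 points, adjusted p = 0.111, limma).

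The 3 C-type genes at the end of Pcdhg had less methylation in the epiblast than in ExE. Pcdhgc3, which keeps the promoter element, was at 5.1, 6.4, 8.2 and 8.7% in the epiblast and at 12.5, 13.2, 13.9 and 17.96% in ExE, with its window at 13.5 and 22.1% (-8.58 ± 3.04 points, adjusted p = 0.026, limma). Pcdhgc4, which lacks that element, was at 11.3, 12.1, 13.2 and 19.1% against 27.9, 31.4, 35.4 and 37.4%, with its window at 22.9 and 45.4% (-22.5 ± 2.87 points, adjusted p = 0.0002, limma). Pcdhgc5, the last gene, was at 15.2, 15.5, 15.8 and 18.5% against 30.1, 30.8, 31.7 and 34.0%, with its window, which also covers the first Pcdhg constant exon, at 17.9 and 26.8% (-8.92 ± 2.52 points, adjusted p = 0.0095, limma). In none of these genes did a library of one tissue reach those of the other. At the 5′ ends of Pcdhgc3 and Pcdhgc4 methylation was almost absent in the epiblast. The window chr18:37806249-37806841 at the start of Pcdhgc3 was at 0.60 ± 0.37% in the epiblast and 1.55 ± 0.50% in ExE, and chr18:37814565-37815726 at the start of Pcdhgc4 at 1.36 ± 1.05% and 9.58 ± 4.00% (adjusted p = 0.0093, limma).

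The tissue difference was tested window by window at E7.5. Of 206 windows, 150 were higher in the epiblast (72.8%, against 82.9% of all autosomal windows), and 20 were higher in ExE (9.71%, against 1.3%). The median difference was 15.1 points over the members and 16.5 over all windows. By array, 52 of 61 Pcdha windows were higher in the epiblast and 1 in ExE, 48 of 49 Pcdhb windows were higher in the epiblast, and so were 26 of 28 windows between the arrays. Pcdhg divided, with 24 windows higher in the epiblast and 19 in ExE of 68. Upstream of Pcdhgb4 the counts were 17 and 0 of 20, and from Pcdhgb4 on they were 7 and 19 of 48. Read by genes, 40 of 55 windows at a gene's 5′ end were higher in the epiblast and 3 in ExE. Taking the window with most of each first exon instead gave more genes higher in ExE. The direction depended on the scaling. Subtracting each library's autosomal mean left 22 windows higher in the epiblast and 59 in ExE, against 19 and 20.8% of all autosomal windows, with 8 and 9 in Pcdha, 6 and 0 in Pcdhb and 3 and 46 in Pcdhg, and the mean difference over the members moved from 12.5 to -3.86 points. Libraries are replicates as the labels number them, single embryos at E7.5 and pools at E6.5, and the p-values measure the spread between these samples.

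The largest epiblast excesses lay outside the first exons. The window chr18:37055755-37068347, in the Pcdha intron between alternate and C-type genes, was at 69.6, 71.7, 79.3 and 79.4% in the epiblast and at 33.3, 36.7, 41.4 and 46.8% in ExE (35.5 ± 3.70 points, adjusted p = 0.00011, limma). Next was chr18:37189181-37195874, just past the Pcdha constant exons, with 67.7, 70.1, 70.2 and 74.9% against 17.3, 38.8, 42.5 and 44.3%. These were tissue gaps of more than 20 points in windows that were highly methylated in the epiblast. Windows over the 3 Pcdha constant exons differed the same way, by 29.6 ± 2.85, 25.2 ± 3.66 and 23.7 ± 4.19 points. The opposite extreme was chr18:37819646-37821457, over the start of Pcdhgc5, with 17.5, 18.6, 22.3 and 24.5% in the epiblast and 43.3, 47.7, 49.0 and 56.4% in ExE (-28.4 ± 3.22 points, adjusted p = 0.00014, limma). It was followed by chr18:37840186-37842560, over the last Pcdhg constant exon, with 7.5, 8.0, 11.0 and 21.2% against 29.6, 35.5, 38.9 and 46.2% (-25.6 ± 3.01 points). The tissues' libraries were separate in each of these 4 single windows. Over the other Pcdhg constant exon windows the differences were smaller (-8.92 ± 2.52, -7.28 ± 4.41 and -6.78 ± 2.67 points), and the second did not pass (adjusted p = 0.150, limma). Next in order came the Pcdhgc4 window given above (-22.5 points), another window of Pcdhgc4 (-16.8 ± 2.75 points), and windows of Pcdhga12 (-15.1 ± 2.72) and Pcdhgc3 (-11.9 ± 2.63).

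**Figure D3:**
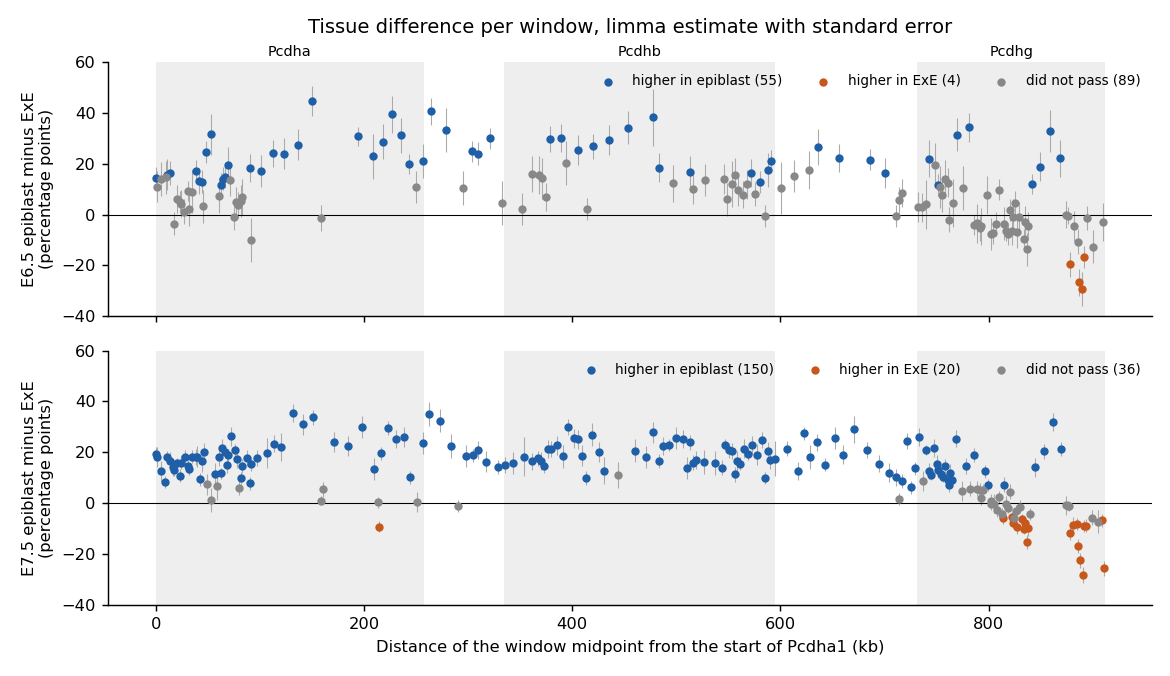
Epiblast minus ExE methylation (percentage points, limma estimate with SE) of each window at E6.5 (upper panel, 148 windows) and E7.5 (lower panel, 206 windows) against distance from the start of Pcdha1 (kb). Blue windows passed as higher in the epiblast (55 and 150), orange ones as higher in ExE (4 and 20), and these turn to 5 and 22 against 30 and 59 with each library's mean subtracted. The ExE calls lie at the end of Pcdhg but for 1 in Pcdha at E7.5.

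At E6.5 the epiblast was again higher over Pcdha and Pcdhb and lower in first exon mean at the Pcdhg C-type genes, with wider spreads between epiblast libraries. Over the 105 windows with a value in all 15 libraries, the mean was 34.8, 36.5 and 39.0% in B6/CAST epiblasts, 38.9, 44.7 and 47.4% in CAST/B6 epiblasts, 26.2 and 27.4% in B6/CAST ExE, and 34.6% in both CAST/B6 ExE libraries. Of 148 windows tested, 55 were higher in the epiblast (37.2%, against 59.6% of all autosomal windows) and 4 in ExE (2.70%, against 0.663%). With library means subtracted these became 5 and 30 (against 6.25 and 8.66% of all windows), and the members' mean difference moved from 10.6 to -5.88 points. The calls higher in the epiblast comprised 25 of 47 windows in Pcdha, 13 of 32 in Pcdhb and 8 of 52 in Pcdhg, and all 4 calls higher in ExE lay in Pcdhg. They included Pcdhgc3 (-19.6 ± 4.93 points, adjusted p = 0.0063, limma), Pcdhgc4 (-26.6 ± 5.32, adjusted p = 0.0022) and the window chr18:37818384-37821301 across the end of Pcdhgc4 and start of Pcdhgc5 (-29.2 ± 6.69, adjusted p = 0.0041). By gene group, first exons in the wild-type epiblast (n = 6) and ExE (n = 4) averaged 30.6 ± 6.8% and 21.7 ± 4.3% for the Pcdha alternate genes, 45.2 ± 6.2% and 30.7 ± 6.7% for those of Pcdhb, 38.2 ± 5.0% and 28.5 ± 5.7% for the upstream ones of Pcdhg, and 18.2 ± 4.0% and 20.5 ± 1.6% for the downstream ones. The Pcdhgc4 first exon was at 18.2, 20.8 and 25.2% in B6/CAST epiblasts and 8.9, 9.1 and 16.6% in CAST/B6 epiblasts, and at 42.4 and 45.5%, and 25.3 and 41.9%, in the ExE of these crosses. The highest epiblast library was thus just under the lowest ExE library. Pcdhga12 did not follow its E7.5 order. Its first exon averaged 28.4 ± 6.4% in wild-type epiblasts and 27.8 ± 4.2% in ExE. The window with most of it, chr18:37768378-37774555, which has other bounds than the E7.5 window, was higher in the epiblast (51.1 ± 6.4% and 39.03 ± 7.2%, 12.02 ± 4.12 points, adjusted p = 0.026, limma). With each library's autosomal mean subtracted, that difference turned negative, so its direction depended on the scaling. Windows over the Pcdhg constant exons did not pass at E6.5 (-1.36 ± 4.81, -12.6 ± 6.42 and -2.87 ± 7.38 points). The first of them also holds most of the Pcdhgc5 first exon, so the test of Pcdhgc5 itself did not pass (adjusted p = 0.817, limma). By overlap-weighted mean, the Pcdhgc5 first exon was at 15.4% in wild-type epiblasts and 29.1% in ExE. The largest excess of the epiblast was in chr18:37073487-37086685, in the Pcdha intron, at 61.8, 83.9 and 86.4% in B6/CAST and 65.4, 74.5 and 76.7% in CAST/B6 epiblasts, against 24.0 and 36.0%, and 21.5 and 38.6%, in ExE (44.8 ± 5.84 points, adjusted p = 0.00049, limma).

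Window boundaries differ between the days, so E6.5 and E7.5 were set side by side by first exon, without a test. In the wild-type epiblast 47 of 58 first exons were higher at E7.5, by a median of 6.40 points. In Pcdha this held for 13 of 14 (median 9.06), in Pcdhb for 19 of 22 (6.84), in Pcdhg before Pcdhgb4 for 8 of 9 (8.12), and from Pcdhgb4 on for 7 of 13 (0.79). In ExE 34 of 57 were higher, by a median of 1.21 points, with 11 of 14 in Pcdha (3.90), 13 of 21 in Pcdhb (2.03) and 10 of 22 in Pcdhg (-0.34). Pools and single embryos, and separate bisulphite preparations, go with the day and cannot be told apart from it.

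The reciprocal crosses differed at E6.5 over the whole genome. The median window was lower in B6/CAST than in CAST/B6 by 8.00 points in the epiblast and 11.5 in ExE, and members were lower by 7.18 and 8.33. At first exons B6/CAST was the lower cross for 46 of 58 in the epiblast, including all 14 of Pcdha, and for 44 of 57 in ExE. From Pcdhgb4 on it was the higher cross for 8 of 13 in the epiblast (median 0.39 points) and 7 of 13 in ExE (0.44). No member passed the test (0 of 122 and 0 of 147, limma), and neither did any of the 192419 and 254322 autosomal windows tested. Unadjusted p was under 0.05 for 18 and 20 members, and for 14.2 and 23.3% of all windows. The lowest epiblast difference lay in chr18:37371909-37395230, within Pcdhb, at -24.5 ± 8.97 points (adjusted p = 0.319, limma). At E7.5 the crosses were close (median 1.71 points over the members, -0.88 over all). Again 0 of 206 members were called, and 0 of all 383556 autosomal windows tested. Unadjusted p was under 0.05 for 23 members (7.02% of all windows).

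In matDKO/CAST epiblasts the arrays were less methylated than in B6/CAST. Means over the 105 windows were 22.1 and 26.3% in the matDKO/CAST epiblasts, both below the 34.8 to 39.0% of the 3 B6/CAST libraries. Autosomal means moved the same way, from 70.7 ± 4.49% (n = 3) to 53.9 ± 1.17% (n = 2), by more points. Pcdha was at 21.98 and 24.8% in matDKO/CAST against 35.0 to 39.0% in B6/CAST, Pcdhb at 24.2 and 28.7% against 40.2 to 45.5%, and Pcdhg at 17.9 and 21.9% against 26.1 to 27.8%. The groups did not overlap in any array. First exons were lower in matDKO/CAST in 46 of 56 genes (median -8.52 points), with 18 of 20 in Pcdhb (-18.5), 13 of 14 in Pcdha (-8.99) and 15 of 22 in Pcdhg (-6.37). The alternate genes of Pcdha averaged 16.9 ± 3.8% in matDKO/CAST epiblasts (SD, n = 2) against 25.9 ± 2.5% in B6/CAST (n = 3), those of Pcdhb 24.8 ± 3.6% against 40.8 ± 5.3%, and the upstream ones of Pcdhg 28.3 ± 7.8% against 34.7 ± 0.43%. The downstream ones stood at 15.0 ± 3.4% against 17.1 ± 2.3%, and there the libraries overlapped (12.6 to 17.4% and 15.4 to 19.7%). In tests of single windows, 16 of 122 were lower (13.1%, against 23.4% of all autosomal windows) and 0 higher (limma). They were 6 of 42 in Pcdha, 3 of 25 in Pcdhb, 1 of 41 in Pcdhg and 6 of 14 between the arrays. Off the first exons 9 of 27 windows were called (median -24.2 points), and on them 7 of 95 (median -9.04). The count is not stable. It was 0 on the logit scale, and 0 with library means subtracted, where no autosomal window was called. It was 8 and 4 without B6/CAST replicate 3 or the B6/CAST library whose number matched no sample title. Without CAST/B6 replicate 1 or replicate 2 it was 9. Set against both wild-type crosses pooled, the count was 38 (47.7% of all windows were called). The members' mean difference, -13.0 points, turned to 3.72 relative to the autosomal mean.

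**Figure D4:**
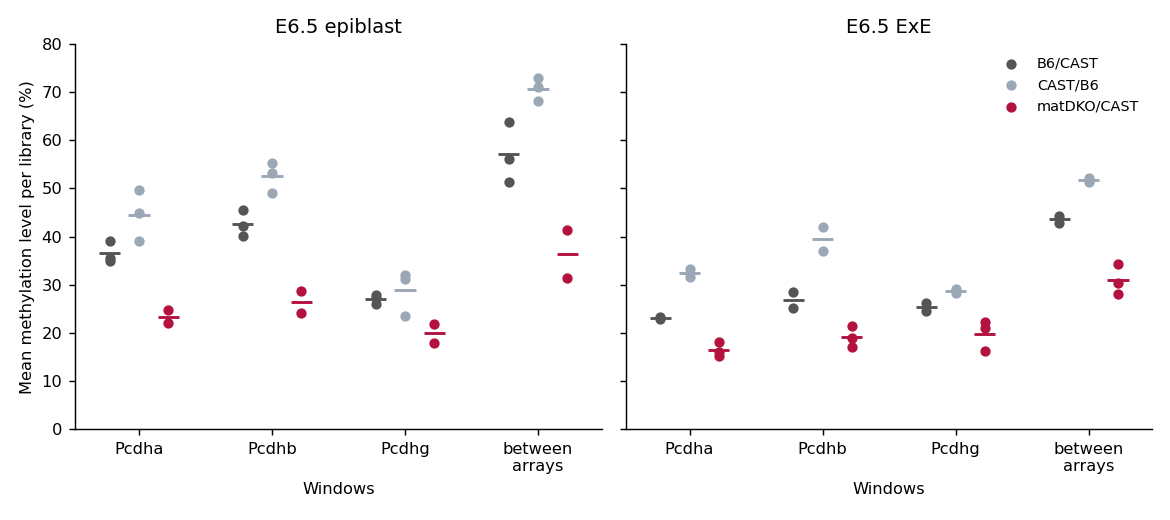
Mean methylation level (%) of the windows of each array at E6.5, in the epiblast (left) and ExE (right). Points are libraries and bars group means (B6/CAST dark grey, CAST/B6 light grey, matDKO/CAST red). In each array the matDKO/CAST libraries are the lowest (Pcdhb epiblast 24.2 and 28.7%), whereas relative to the autosomal mean the members' difference from B6/CAST turns to 3.72 points in the epiblast and 5.31 in ExE.

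Counted in points, the largest losses were in the spaces between and within arrays. The window chr18:37571105-37579715, between Pcdhb and Pcdhg, was at 63.5, 66.7 and 69.0% in B6/CAST and at 5.0 and 31.7% in matDKO/CAST epiblasts (-48.1 ± 7.93 points, adjusted p = 0.0135, limma). The Pcdha window chr18:37073487-37086685 was at 61.8, 83.9 and 86.4% against 32.2 and 40.2% (-41.2 ± 8.21 points, adjusted p = 0.017, limma). In both the matDKO/CAST values lay below each B6/CAST value. The most changed gene window was at the 5′ end of Pcdhb13 (-37.2 ± 10.8 points, adjusted p = 0.041, limma). This window, chr18:37442379-37444344, was at 46.7, 57.4 and 63.6% against 0.0 and 37.5%. Its value of 0.0% came from the library with the fewest windows, and depth there is unknown. The window holding most of the Pcdhb13 first exon was nearly unchanged (0.27 ± 9.80 points, adjusted p = 0.987, limma). Of the C-type genes, Pcdhac2 passed, with its main window at 62.4, 67.2 and 70.0% against 28.9 and 40.0% (-32.1 ± 9.34 points, adjusted p = 0.041, limma). The Pcdhgc3 first exon was at 8.5, 8.6 and 10.0% in B6/CAST and at 1.3 and 4.5% in matDKO/CAST, low in each. The largest gain was in a Pcdhgb6 window, 11.1 ± 9.55 points, which did not pass (adjusted p = 0.384, limma).

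In ExE the matDKO/CAST means were 17.6, 20.5 and 20.9%, under the 26.2 and 27.4% of B6/CAST. First exons were lower in 53 of 58 genes (median -6.25 points). No window was called (0 of 147, limma), nor was any of the 254322 autosomal windows tested. Unadjusted p was under 0.05 for 13 members, against 25.8% of all windows. With the wild-type crosses pooled 12 were lower, against 26.3% of all windows. Pcdhb1 had the lowest gene window, at 43.9 and 47.5% in B6/CAST and 8.3, 11.8 and 12.5% in matDKO/CAST, with a wide gap but an adjusted p of 0.132 (-34.8 ± 5.64 points, limma). Within matDKO/CAST, 6 of 105 windows were higher in the epiblast than in ExE (5.71%, against 19.6% of all windows) and 0 in ExE. On the logit scale, and also with library means subtracted, the count was 1. The largest such difference was in chr18:37059970-37073227, in Pcdha, at 61.8 and 62.5% against 12.5, 13.6 and 22.7% (45.8 ± 7.38 points, adjusted p = 0.0039, limma). The Pcdhgc4 and Pcdhgc5 window chr18:37818384-37821301 kept its opposite sign, at 20.8 and 26.0% against 41.8, 43.9 and 60.3%, and missed the threshold (-25.2 ± 8.56 points, adjusted p = 0.051, limma). Whether the loss differed between tissues was tested as an interaction, which called 0 of 105 windows (limma) and 0 of all 167307 autosomal windows tested. Unadjusted p was under 0.05 for 5 members, against 8.80% of all windows.

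Parental alleles were compared within E7.5 libraries, where reads covering a B6 or CAST variant could be assigned. Over 142 windows in the epiblast the maternal allele averaged 43.2 ± 2.73% and the paternal 44.5 ± 1.09%, a difference of -1.28 ± 3.18 points, with higher maternal values in 2 of the 4 libraries. In ExE, over 179 windows, they stood at 32.0 ± 3.05% and 32.3 ± 1.76% (-0.28 ± 2.05 points, 2 of 4). These differences were within the spread between libraries. The sign followed the cross, with maternal minus paternal at 1.16 and 1.39 in B6/CAST and -2.40 and -5.27 in CAST/B6 epiblasts, and at 2.48 and 0.0045 against -1.41 and -2.18 in ExE. The B6 allele thus had the higher mean in 8 of 8 libraries, as it also did over all autosomal windows, by 0.44 to 0.84 points. No window was called in either tissue (0 of 142 and 0 of 179, limma), with 6 and 15 at an unadjusted p under 0.05, against 4.87 and 6.38% of all windows. Over all autosomal windows, 15 in the epiblast and 16 in ExE passed as higher on the maternal allele, and 5 and 7 on the paternal. The lowest epiblast value was at the start of Pcdhgc5, chr18:37819646-37821457, with 16.7, 19.2, 20 and 29.6% on the maternal allele and, in the same libraries, 28.5, 41.7, 76.9 and 38.5% on the paternal. The paternal allele was higher in 4 of 4 libraries (-24.999 ± 7.98 points, adjusted p = 0.941, limma). In ExE the same window had 49.5, 53.3, 50.0 and 43.8% against 65, 48.5, 66.7 and 57.8%, with 3 libraries following that order.

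Alleles were also compared by strain, and no window passed (0 of 142 and 0 of 179, limma). The same test passed none of the 238529 and 318358 autosomal windows either. Unadjusted p was under 0.05 for 16 epiblast and 21 ExE members, against 6.65 and 8.73% of all windows. The B6 allele was higher in 4 of 4 libraries in 15 epiblast and 21 ExE windows, and the CAST allele in 4 and 9. These are 10.6 and 11.7% of the members for B6 and 2.82 and 5.03% for CAST, against 7.89 and 9.13%, and 6.29 and 6.77%, of all autosomal windows. By parent, 6 and 10 windows had more maternal methylation in each of the 4 libraries (5.75 and 6.32% of all windows) and 9 and 13 had more paternal methylation (6.0 and 6.27%). In chr18:36977428-36981274, between Pcdha7 and Pcdha8, the B6 allele was at 53.3, 57.2, 71.7 and 78.2% and the CAST allele at 25, 27.3, 31.8 and 40.3% in the epiblast (34.0 ± 5.16 points, adjusted p = 0.748, limma). In ExE it was at 46.6, 52.4, 56.4 and 61.6% against 19.3, 19.8, 20.1 and 23.0% (33.7 ± 4.10 points, adjusted p = 0.539, limma). The alleles did not overlap in either tissue, whichever parent gave them. A second window, chr18:36989273-36992629 at the start of Pcdha8, was at 50.8, 60.7, 67.7 and 77.8% against 32.8, 32.8, 36.5 and 40.7% in the epiblast (28.6 ± 5.63 points). Between them, chr18:36988324-36989272 had the largest gap in ExE, with 50.4, 80.3, 85.5 and 90.4% against 5.9, 23.9, 25.2 and 35.3% (54.0 ± 7.46 points). The 3 windows lie around Pcdha8. The CAST allele was the higher one most in a Pcdhb17 and Pcdhb18 window in the epiblast (-18.3 ± 4.84 points) and in chr18:37619187-37630348, between Pcdhb and Pcdhg, in ExE (-22.7 ± 3.87 points).

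**Figure D5:**
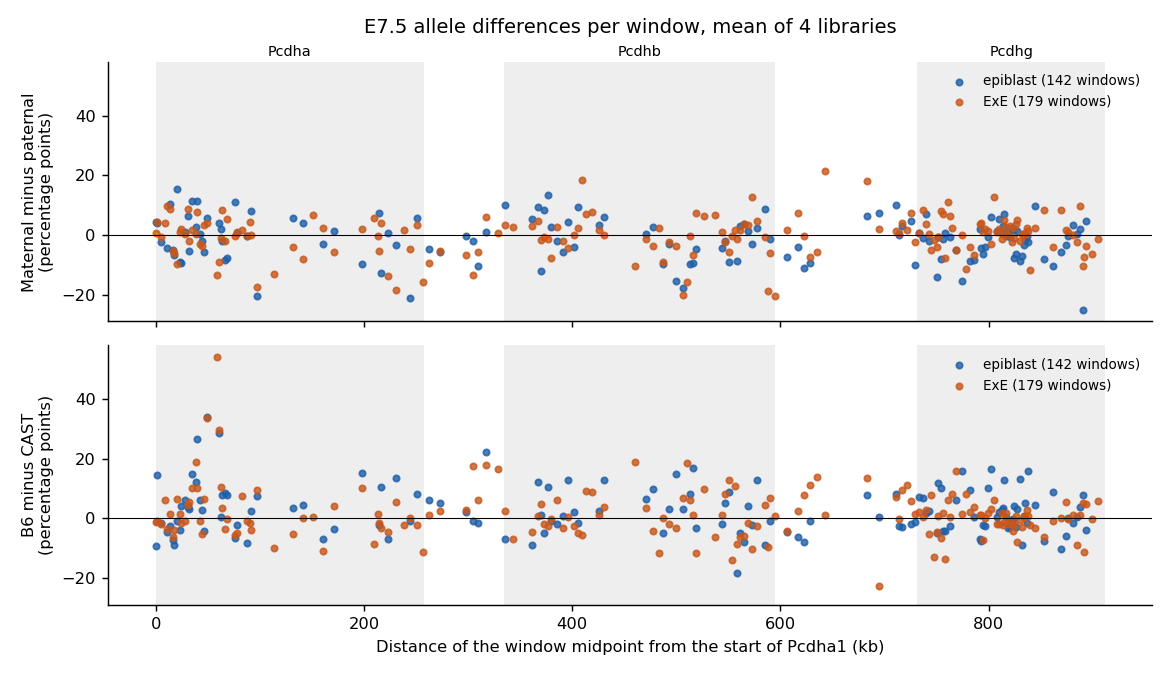
Allele differences in methylation (percentage points, mean of 4 libraries) of each window at E7.5 against distance from the start of Pcdha1 (kb), maternal minus paternal above and B6 minus CAST below. Blue is the epiblast (142 windows) and orange ExE (179 windows). Parental differences scatter about 0, while B6 exceeds CAST by up to 54.0 points in a group of Pcdha windows.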

How the data were processed

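DNA methylation was measured by post-bisulphite adaptor tagging. The authors trimmed and aligned the reads (Trim Galore 0.4.4 and Bismark 0.20.0, per the submitters' processing notes) and deposited percent methylation per window, in separate tables for E6.5, E7.5 and the E7.5 alleles; E6.5 libraries were made from input of digested chromatin, and bisulphite conversion was repeated at E7.5. One matDKO/CAST epiblast replicate was left out by the authors. Reads of matDKO/CAST libraries also went through extra alignment steps for 129 alleles, and whether the deposited columns include them is not stated. All 39 value columns were used; the number in 1 column's name matched no sample title of its group.

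Percentages were fitted with limma 3.58.1 (R 4.3.3) over autosomal windows with a value in each library of the comparison. Tissue fits had the cross as a term, and allele fits used differences within libraries. Benjamini-Hochberg adjustment ran over all those windows, with a threshold of 0.05. Members and lists were chosen with earlier results of these data known. Named were the C-type genes and Pcdhb1, the first and last genes of each array, and the 5 windows at each end of a comparison, neighbours counted once; further windows were picked after their values were seen. Genes and exons come from the GENCODE annotation of GRCm38. The fit was tested on simulated data. Alternatives were a logit scale with an offset of 1%, trend and robust variances, missing values, library means subtracted, a difference of 20 points, windows wholly inside, no cross term, pooled wild type, replicate number as a block, length weights, medians and 56 fits without 1 library.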

Additional observations from a re-analysis of the deposited data

Results flagged for a closer look

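Among 56 groups of first exon values examined, 3 held a library apart from the others, where chance alone sets about 1 in 20 groups apart. The Pcdhac2 first exon was at 97.6% in CAST/B6 epiblast replicate 1 at E6.5, against 39.7 to 52.3% in the 5 other wild-type epiblasts. The Pcdhgc3 first exon was at 3.12% in CAST/B6 epiblast replicate 3, against 7.81 to 10.0% in the others. In E6.5 ExE the Pcdhb22 first exon was at 26.9% in B6/CAST replicate 2, against 40.6 to 43.1% in the other 3 libraries.

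In the window chr18:36948412-36953031, over Pcdha3 and Pcdha4, the maternal minus paternal difference was positive in every E7.5 epiblast library and negative in every ExE library. The smallest of these was in B6/CAST epiblast replicate 1, at 38.55% against 38.52%. The ExE value minus the epiblast value was -25.2 points, and this difference was not tested. It was 1 of 26 windows compared.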

How the results depend on the processing

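Values below give the count of members called or the mean difference in points. With library means subtracted, the calls at E6.5 went from 55 and 4 (epiblast higher, ExE higher) to 5 and 30, at E7.5 from 150 and 20 to 22 and 59, the epiblast losses in matDKO/CAST from 16 to 0, and the calls within matDKO/CAST from 6 and 0 to 1 and 2. The members' mean tissue difference turned from 10.6 to -5.88 at E6.5 and from 12.5 to -3.86 at E7.5, and the matDKO/CAST difference from -13.0 to 3.72 in the epiblast and from -7.12 to 5.31 in ExE. Asking for 20 points left 33 and 2 at E6.5 and 56 and 3 at E7.5. The logit scale gave 0 losses in the matDKO/CAST epiblast and 1 call within matDKO/CAST. Trend and robust variances gave 8 ExE calls at E6.5 and 2 within matDKO/CAST. Pooling the wild-type crosses gave 38 losses in the epiblast and 12 in ExE. Length weights moved the means to 17.5 and 17.1 (tissue, E6.5 and E7.5), -17.1 and -8.92 (matDKO/CAST, epiblast and ExE), and the median gave 15.5 at E7.5. Using the window with most of the first exon gave 2 genes higher in ExE at E6.5 and 6 at E7.5, in place of 1 and 3. The cause of these moves was not tested, apart from the subtraction, which removes the genome-wide level.

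Window deviations of same-numbered libraries were barely correlated (25 pairs, from -0.0279 to 0.0506), so numbers were not taken to pair samples. With 2 libraries per group at E7.5 this check is weak. Autosomal means of E7.5 replicates 1 and 2 moved alike in both tissues. They were 74.4 and 71.7% with 58.9 and 56.3% in B6/CAST, and 74.0 and 75.6% with 56.0 and 59.2% in CAST/B6. Whether same-numbered tissues came from 1 embryo is unknown. With the replicate block, calls were 25 and 2 at E6.5, 153 and 19 at E7.5, and 0 in both matDKO/CAST comparisons.

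Leaving out 1 library at a time gave 41 to 56 and 4 to 5 calls at E6.5, 141 to 151 and 16 to 20 at E7.5, 4 to 18 matDKO/CAST losses in the epiblast, and 6 to 8 and 0 to 1 within matDKO/CAST; means ran from 9.26 to 12.04, 11.7 to 13.3, -14.9 to -11.0 and -7.77 to -5.91. The parental means ran from -2.19 to 0.12 in the epiblast and from -1.21 to 0.40 in ExE.

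Over 152 windows (those at the ends of each comparison, and, for the tissue comparisons and the matDKO/CAST epiblast, those of the C-type genes, Pcdhb1 and the first and last genes) and 1036 alternative values, 926 kept direction and side of the threshold, 21 gained and 63 lost the call, and 26 turned. With library means subtracted, the E6.5 tissue difference went from 14.5 to -2.01 at Pcdha1 and from 12.02 to -4.46 at Pcdhga12, both past the threshold before, and to -5.99 at Pcdhb22 and -13.7 at Pcdhga1, the E7.5 one from 5.42 to -10.9 at Pcdhac1 and from 15.0 to -1.34 at Pcdhb1, and the matDKO/CAST epiblast difference turned to 11.7 at Pcdha1, 13.7 at Pcdhga12, 10.2 at Pcdhgc3 and 14.6 at Pcdhgc5. Of these, Pcdhb1 at E7.5 had also passed, and the windows that follow had not. In the matDKO/CAST epiblast, chr18:37278075-37286394 went from 6.77 to -1.96 (pooled wild type) and -10.3 (1 library left out), chr18:37663412-37669221 from 5.01 to -2.17 and -6.17, chr18:37747992-37749646 from 9.22 to -1.51 (1 left out), Pcdhga12 from -3.00 to 4.35 (1 left out), and Pcdhgc5 from -2.15 to 2.91 (pooled) and 0.0985 (1 left out). In ExE, the first went from 7.26 to -15.0 (pooled), chr18:37655603-37660471 from 11.6 to -1.95 (replicate block, and 1 left out), and chr18:37822652-37826280 from 8.36 to -1.86 (1 left out). That last window's tissue difference went from -1.36 to 0.67 (replicate block) and 2.39 (1 left out), that of Pcdhga1 to -0.14 (1 left out), and the interaction at chr18:37039839-37046038 from 14.7 to -5.99.

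The tables hold no read counts, so a coverage minimum could not be run, and sparse E6.5 windows cannot be told from well-covered ones.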

Other observations

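Protocadherin genes outside the arrays were low at their 5′ ends. At E7.5, 8 of 10 non-clustered protocadherin genes had a start window under 20% in both tissues, with medians of 2.52% in the epiblast and 9.78% in ExE. The exceptions were Pcdh12, a vascular endothelial protocadherin gene, at 70.1 and 53.8%, and Pcdh20 at 42.4 and 33.9%. At E6.5 this held for 2 of the 5 with a value (medians 17.4 and 13.2%). Of 7 genes for regulators of the arrays, such as methyltransferases and CTCF, 6 were under 20% in both tissues, and Dnmt1, the maintenance methyltransferase gene, stood at 85.7 and 62.9%. At E6.5 none of the 3 regulators with a value was under 20% in both (medians 46.7 and 24.4%). Within the arrays' span, the window at Taf7, a gene for a subunit of the general transcription factor TFIID that lies between Pcdhb and Pcdhg, was at 6.6 ± 3.2% in the epiblast and 5.1 ± 0.37% in ExE at E7.5, and at 15.7 ± 11.7% and 10.01 ± 3.9% at E6.5. As a check of the maternal deletion, the start windows of 10 maternally methylated imprinted genes were compared with B6/CAST at E6.5. Of those with a value, 4 of 5 were lower in matDKO/CAST epiblasts (medians 31.7 against 65.8%) and 8 of 8 in ExE (33.1 against 61.5%). Autosomal means were lower too, at 53.9 against 70.7% in the epiblast and 40.8 against 53.5% in ExE. The direction alone therefore does not set these genes apart. Plagl1 was the epiblast exception, at 10.7 against 7.28%, and Peg10 was at 0.0% in both matDKO/CAST epiblasts. The depth of these windows is unknown, and 1 of those epiblasts is the library with the fewest windows.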
